A study of Mus musculus with 5 samples.

Results

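The mouse peptidylarginine deiminase genes Padi1, Padi2, Padi3, Padi4 and Padi6 were followed across RNA from mouse brain that had bound, or had not been exposed, to the protein MA-Brent-1. They were found by gene symbol in the probe annotation of the array, which gave 5 probe sets of 45101, 1 for each gene. The Entrez identifiers of all 5 matched the gene table used here. RNA signal was measured on 5 Affymetrix mouse expression arrays. In 2 samples brain RNA was eluted from MA-Brent-1 that had been deiminated, and in 2 from the same protein without deimination. The remaining sample was the starting brain RNA, with no binding step, called input below. Of the 4 bound samples, 1 of each group is titled with the name REFP2 and 1 with MA-Brent-1. Strain, age and sex of the mice are not given in the sources used here, and 1 title calls its sample a biological repeat. Nothing says that the other samples came from separate brains. The p-values below therefore rest on a spread between arrays that may be technical.

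Peptidylarginine deiminases are calcium-dependent enzymes that convert arginine in proteins to citrulline, which removes a positive charge. In brain, Padi2 is the main member and is known from oligodendrocytes and astrocytes, where myelin basic protein and the filament protein GFAP are substrates. Padi1 and Padi3 act in epidermis and hair follicles, Padi4 is known from neutrophils and enters the nucleus, and Padi6 is an oocyte protein needed for early embryos. MA-Brent-1, an mRNA export adaptor of the kind named REF or Aly, was itself the deiminated protein here. The arrays therefore report the signal of each deiminase mRNA relative to the rest of an RNA fraction, not the activity of any deiminase. In a bulk sample, fewer cells of a type and less RNA per cell cannot be told apart.

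The 5 genes lie next to each other on mouse chromosome 4, at chr4:140727355-140952586 in GRCm38.p6, with 0 other protein-coding genes between them. Their order is Padi6, Padi4, Padi3, Padi1 and Padi2, and Padi2 stands apart, 60557 bases from Padi1, where the other gaps are 2864, 11129 and 2332 bases. Padi2 is also transcribed in the opposite direction, since its promoter is on the plus strand and those of the other 4 are on the minus strand. RefSeq promoters of 300 bases on GRCm38.p6, 250 before and 50 after the annotated start, were found for all 5. The Padi2 promoter held 22 CG dinucleotides, against 8 for Padi4, 4 for Padi3, 3 for Padi1 and 2 for Padi6. The median of all 32851 promoters of that length was 7, 94.6% held at least 1, and CG reads the same on both strands. TATAAA, searched on both strands and sharing no bases with CG, was found in the Padi4 promoter alone among the 5, and in 13.6% of all promoters. The promoters with the most and the fewest CG are shown because their genes also differed in the comparison with input below. The other members did not follow the order of the counts there. In bound RNA against input Padi4, with 8 CG, fell by 4.61 and Padi1, with 3, by 2.44. Both are printed in the direction of transcription, with capitals marking CG, at chr4:140906110-140906409 on the plus strand for Padi2 and chr4:140742594-140742893 on the minus strand for Padi6.
Padi2: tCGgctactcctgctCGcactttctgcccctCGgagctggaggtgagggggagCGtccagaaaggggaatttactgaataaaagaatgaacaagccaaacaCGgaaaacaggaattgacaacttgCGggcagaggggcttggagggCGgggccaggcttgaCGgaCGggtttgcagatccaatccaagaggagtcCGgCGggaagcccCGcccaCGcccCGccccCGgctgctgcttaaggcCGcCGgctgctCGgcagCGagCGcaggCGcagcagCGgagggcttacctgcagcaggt
Padi6: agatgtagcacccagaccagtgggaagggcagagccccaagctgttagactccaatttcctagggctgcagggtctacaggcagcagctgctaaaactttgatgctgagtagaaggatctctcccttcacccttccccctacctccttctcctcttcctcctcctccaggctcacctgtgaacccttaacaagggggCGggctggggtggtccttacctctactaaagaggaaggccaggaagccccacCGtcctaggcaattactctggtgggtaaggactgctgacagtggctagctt
A dinucleotide count describes these letters and was not tested against the signals.

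The input array stood apart from the bound arrays, and every comparison with it rests on that 1 array. The median signal was 29.9 and 37.6 on the deiminated and 30.5 and 41.5 on the non-deiminated arrays, against 102 on the input array, although all 5 had been scaled to the same trimmed mean of 150. On the bound arrays 13.5% to 18.3% of probe sets lay under 4.18, the value added before taking log2, against 0.75% on the input array. The hybridisation controls, transcripts added in fixed amounts, averaged 10.59 and 12.60 log2 on deiminated, 10.08 and 13.04 on non-deiminated and 17.04 on the input array. For 3369 genes with 2 probe sets past the signal filter, the signals of the pair correlated across genes at 0.236 to 0.260 on the bound arrays and at 0.0038 on the input array. Brain markers were present in the bound RNA: the 8 neuronal markers had a median position at the 96.6 to 97.5 percentile of each bound array, against 88.1 on the input array. These values do not settle whether the input array measured the starting RNA, so higher or lower against input below refers to its signals alone.

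Padi2, the brain deiminase, was the member whose bound signals lay closest to its input signal. With deiminated protein its probe set, 1418252_at, had signals of 213 and 261, with non-deiminated protein 270 and 310, and in the input 220. All 4 bound arrays placed it high, at the 82.2 and 84.5 percentile in the deiminated samples and the 84.4 and 86.6 percentile in the non-deiminated samples, against 75.0 in the input. It read 6.97 to 8.85 times the array median on bound arrays and 2.16 times on the input array, though the brightness of a probe set depends on its probes as well as on its RNA.

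**Figure D1:**
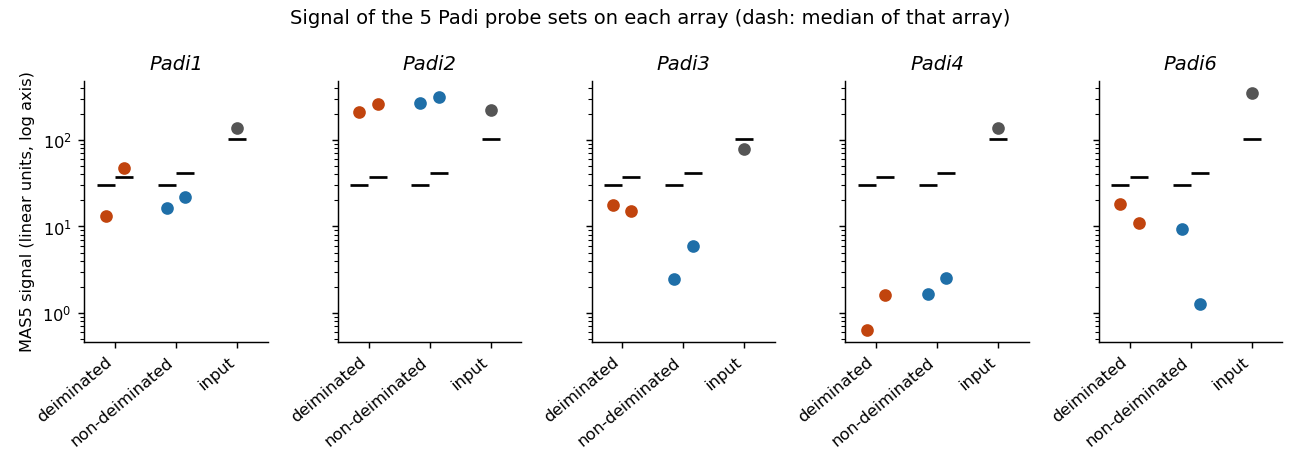
Signal of each Padi probe set on a log axis, by group, with 1 point per array and a dash at that array's median. Padi2 lies between 213 and 310 on all 5 arrays, and the other 4 probe sets have their highest value on the input array.

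Padi1 encodes a deiminase of the epidermis. With deiminated protein its signals, from 1419323_at, were 13.1 and 47.4, with non-deiminated protein 16.6 and 21.7, and in the input 139. The deiminated pair enclosed both non-deiminated values, and all bound values lay below the input.

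Padi3, which acts on trichohyalin and other proteins of the hair follicle, had signals of 17.9 and 15.2 with deiminated protein, 2.47 and 5.99 with non-deiminated protein, and 79.3 in the input (1419767_at). Here the deiminated and non-deiminated values did not overlap, and both were below the input. The input value itself was under the median of its array, at the 44.4 percentile.

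Padi4, the nuclear deiminase that modifies histones in neutrophils, was close to the bottom of every bound array. It had signals of 0.632 and 1.61 with deiminated protein, 1.65 and 2.55 with non-deiminated protein, and 136 in the input (1422760_at). All 4 bound values were under 4.18, and lay between the 1.93 and 8.59 percentile of their arrays, against 57.1 for the input value. No detection calls were used here, so these values do not say whether the transcript was present.

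Padi6, the oocyte member, had signals of 18.2 and 10.9 with deiminated protein, 9.23 and 1.26 with non-deiminated protein, and 350.0 in the input (1437084_at). The input value was at the 88.8 percentile of its array, while the bound values ran from the 2.66 to the 39.5 percentile. The groups did not overlap, but the closest deiminated and non-deiminated values were 10.9 and 9.23, and 1 non-deiminated array was much lower than the other.

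Differences were tested on log2(signal + 4.18) with limma across all probe sets, and an adjusted p is Benjamini-Hochberg over all of them. On this scale the change of low probe sets is understated. A probe set entered the test if its mean over the 5 arrays reached the 40th percentile, 4.89 log2. Padi2 passed by 3.11 and Padi1, at 5.21, by 0.31, while Padi6 at 4.61, Padi3 at 4.24 and Padi4 at 3.45 did not. The mean of Padi1 over the 4 bound arrays was 4.72, so it passed through the input array, the one where it is high. This held for 3022 of the 27022 probe sets past the filter, 11.2%. Against input, Padi1 and the 3 members under the filter are therefore read from a fit of all 45037 non-control probe sets, named below as the fit with no filter. Padi2 is read from the filtered fit.

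Deiminated against non-deiminated protein asks whether deimination of MA-Brent-1 changed how much of a transcript it held. No Padi transcript passed this test, and their differences ran in both directions. Padi3 had a log2 difference of 1.33 ± 0.78 (SE; 95% interval -0.37 to 3.03) and Padi6 1.11 ± 0.86 (-0.76 to 2.97), both in limma with no filter at adjusted p = 0.9999. With 1.05 added before the log Padi3 had 1.82 and Padi6 1.64, and with 16.7 added they had 0.67 and 0.52. Without non-deiminated replicate 1 Padi3 had 1.03 and Padi6 1.76, and without non-deiminated replicate 2 they had 1.64 and 0.46. Padi1 had 0.37 ± 0.75 (-1.25 to 1.98), Padi2 -0.29 ± 0.33 (-1.01 to 0.43) and Padi4 -0.25 ± 0.56 (-1.47 to 0.97), with 2 samples in each group. The interval of Padi2 was the narrowest of the 5, and those of Padi3 and Padi6 reached about 3 log2 units above 0. limma called 0 of 5 members, where it called 0 of 27022 probe sets with the filter and 0 of 45037 without it, which is 0% of each. An unadjusted p under 0.05 was found for 356 and 923 of them, and for 0 of the 5 members.

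Groups did not overlap for 4 of the 5 members, 2 higher and 2 lower, where 26.3% of all 45037 probe sets did not overlap, 11.6% higher and 14.7% lower. With 2 arrays a group the exact two-sided permutation test cannot give a p under 0.333, and Padi2, Padi3, Padi4 and Padi6 each had 0.333. Padi1 had an exact permutation p of 1.

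The 2 protein names in the titles gave pairs of arrays within which the members could be compared. Padi3 had a log2 difference of 1.12 within the arrays titled MA-Brent-1 and 1.54 within those titled REFP2. Padi2 had -0.53 and -0.04 within them, Padi4 -0.48 and -0.01, and Padi6 2.04 and 0.17. For these 4 members the groups did not overlap, so any pairing of the arrays had to give the same sign. That sign adds no support, here or by control level below. Sizes were near 0 in the REFP2 pair for Padi2 and Padi4. Padi1 had -0.58 and 1.31, and its sign also turned without deiminated replicate 2, to -0.42. Each group also held 1 array with lower and 1 with higher hybridisation controls. Within the lower pair Padi3 had 1.73 and within the higher pair 0.93, Padi6 had 0.74 and 1.47, and Padi2 had -0.33 and -0.24. Padi2 was brighter on the array with the higher controls in both groups, at 261 against 213 in deiminated and 310 against 270 in non-deiminated samples. The part of the control level in that spread was not tested.

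**Figure D2:**
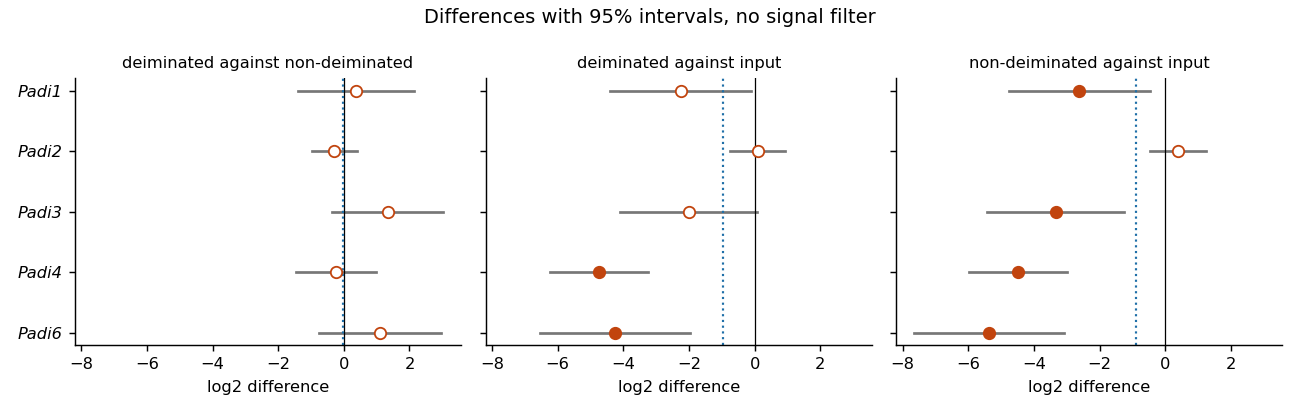
log2 differences of the 5 members in limma with no filter, with 95% intervals on the horizontal axis, for 3 comparisons. Filled points have an adjusted p under 0.05, and the dotted line is the median of all 45037 probe sets. In deiminated against non-deiminated all 5 intervals include 0. Against input, Padi2 lies near 0 and the other 4 lie below the dotted line.

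Deiminated against input asks which RNAs the deiminated protein held relative to the starting RNA. Padi4 fell by 4.74 on the log2 scale (SE 0.69; adjusted p = 0.000347) and Padi6 fell by 4.27 (SE 1.05; adjusted p = 0.00727) in limma with no filter. In the same fit Padi3 had -2.01 ± 0.96 (adjusted p = 0.101) and Padi1 -2.26 ± 0.99 (adjusted p = 0.0779), so neither passed. Padi2 had 0.10 ± 0.41 (-0.78 to 0.98; adjusted p = 0.852), with 1 deiminated array below and 1 above the input. With no filter limma called 2 of 5 members lower, where 32.7% of all probe sets were called lower. With the filter 51.5% of all probe sets were called in either direction, and of those calls 48.4% were higher, and 65.4% after quantile normalisation. With the filter, which Padi1 passed through the input array, its adjusted p was 0.0539. In that fit Padi1 had -1.47 without deiminated replicate 1, the array with its lowest signal, and -3.04 without deiminated replicate 2. It stayed at -2.26 without non-deiminated replicate 1 or 2, and had -1.83 when 16.7 was added before the log. Some of these passed, but a pass in that fit adds no support, since Padi1 entered it through its input signal.

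Non-deiminated against input uses the same single input array, so its values stand beside those above and add no separate support. Padi6 fell by 5.37 (SE 1.05; adjusted p = 0.0023) and Padi4 by 4.49 (SE 0.69; adjusted p = 0.000518) in limma with no filter. Padi3 fell by 3.34 (SE 0.96; adjusted p = 0.0156) in the same fit. Padi1 fell by 2.62 (SE 0.99; adjusted p = 0.0474) in that fit. Its adjusted p of 0.0305 with the filter adds no support, since it passed the filter through the input array. Padi2 had 0.39 ± 0.41 (-0.50 to 1.27; adjusted p = 0.442), with both non-deiminated arrays above the input. With no filter limma called 4 of 5 lower, where 30.8% of all probe sets were called lower. With the filter 50.5% of all probe sets were called in either direction, and of those calls 49.0% were higher, and 65.4% after quantile normalisation. Quantile normalisation ended the call of Padi1 (-1.29, adjusted p = 0.23), and so did cyclic loess (-1.11, adjusted p = 0.294). After quantile normalisation Padi2 had 0.99 and was called (adjusted p = 0.0408).

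With the 4 bound arrays as 1 group, Padi2 had a log2 difference from input of 0.24 ± 0.37 (-0.56 to 1.05; adjusted p = 0.593). After quantile normalisation Padi2 had 0.88 and was called higher (adjusted p = 0.044), and after cyclic loess it had -0.43 (adjusted p = 0.349). In the fit with no filter Padi1 fell by 2.44 (SE 0.90; adjusted p = 0.0391) and Padi3 fell by 2.68 (adjusted p = 0.0232). Padi4 fell by 4.61 (adjusted p = 0.000172) and Padi6 fell by 4.82 (adjusted p = 0.00199). With no filter limma called 4 of 5 members lower, where 36.2% of all probe sets were called lower. Of the 5, 4 had every bound array below the input, where this held for 54.7% of all probe sets. With the filter 56.6% of all probe sets were called in either direction, and of those calls 47.3% were higher, and 64.3% after quantile normalisation. With the filter, passed by Padi1 through the input array, Padi1 had an adjusted p of 0.0249, which adds no support. Without deiminated replicate 1 it had -2.04 in that fit. Quantile normalisation gave -1.06 (adjusted p = 0.273) and cyclic loess -0.89 (adjusted p = 0.343).

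The sign of a member against input depended on how the arrays were scaled to each other, and the median of all filtered probe sets moved with the scaling. That median was -0.20 as deposited, 0.49 after quantile normalisation, -0.26 after cyclic loess and 4.33 with the arrays scaled to the hybridisation controls. At that last scaling the differences of Padi1, Padi3 and Padi6 turned to 2.24, 1.51 and 0.24, and Padi4 had -0.49. Relative to these medians, in the same order, Padi4 had -4.41, -3.76, -2.47 and -4.82, and Padi6 -4.62, -5.22, -2.59 and -4.08. Padi1 had -2.24, -1.55, -0.62 and -2.09, and Padi3 -2.47, -1.79, -0.42 and -2.82. These 4 members stayed below the filtered median under each of these 4 scalings, though Padi3, Padi4 and Padi6 were themselves under the filter. With no filter the median as deposited was -0.92. Relative to it Padi1 had -1.52, Padi3 -1.76, Padi4 -3.69 and Padi6 -3.90. That median was not computed for the other scalings, so how Padi1 and Padi3 would stand against it after cyclic loess is not known. Relative to the filtered medians Padi2 had 0.44, 0.38, -0.17 and 0.91, so its sign turned after cyclic loess. In deiminated against input alone, Padi3 was above the filtered median after cyclic loess, by 0.27.

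**Figure D3:**
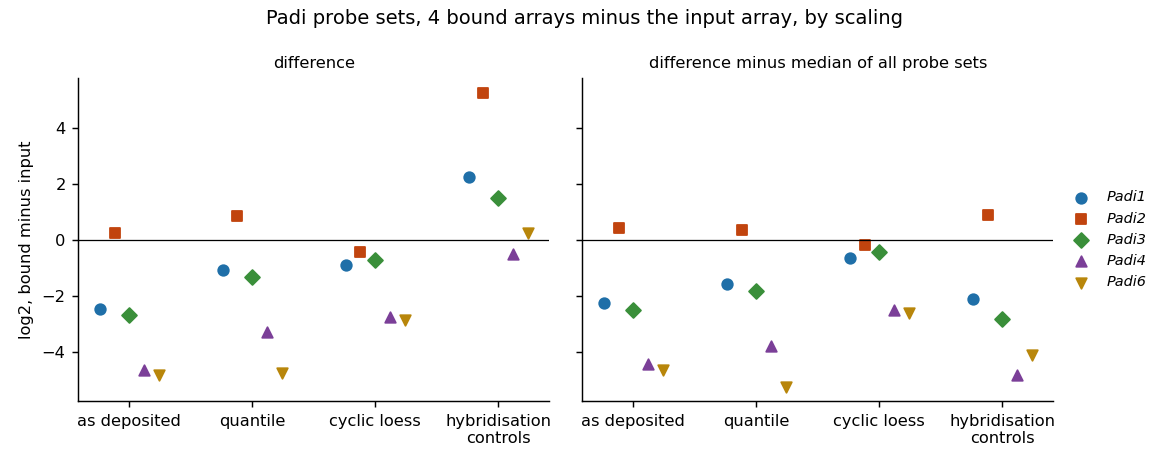
log2 difference of the 4 bound arrays from the input array for each member under 4 scalings, on the left as computed and on the right after subtracting the median of all filtered probe sets. On the right Padi2 stays between -0.17 and 0.91, and the other members stay below 0.

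The size of the fall of Padi4 was also set by the value added before the log. The log2 difference was -5.75 when 1.05 was added and -3.06 when 16.7 was added, since every bound signal of Padi4 was smaller than 4.18. For Padi2, with signals far above it, the same settings gave 0.25 and 0.23.

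Genes known from the same cells as each member were set beside it, on the deposited scaling. Scaled to the hybridisation controls, 0 genes of any list were called and every list had a positive median, as did all probe sets. Of 9 oligodendrocyte markers with a probe set and past the filter, 5 were called higher in bound RNA than in input and 0 lower, with a median log2 difference of 1.24. The median over all 13055 genes was 0.12, with 31.6% called higher and 24.8% lower. Such shares over all genes, here and below, were taken on the deposited scaling alone. Counts called under another scaling therefore have no share over all genes beside them. Mobp, a myelin protein gene, rose by 3.22 (SE 0.40; adjusted p = 4.25e-05) and the tight junction gene Cldn11 by 1.24 (SE 0.37; adjusted p = 0.0136), but after cyclic loess Cldn11 had 0.04 (adjusted p = 0.931). Mbp had -0.57 ± 0.82 and the myelin enzyme gene Cnp -0.44 ± 0.67, and neither passed, though after cyclic loess Mbp was called lower at -2.16 (adjusted p = 0.00546). Of 7 astrocyte markers 4 were called higher and 0 lower, and of 8 neuronal markers 8 higher. After quantile normalisation 5 astrocyte markers were called higher and 1 lower, and 5 neuronal markers higher and 0 lower. After cyclic loess these counts were 3 and 2 for astrocytes, and 3 and 0 for neurons. The neuronal median was 2.21 above that of all probe sets as deposited and 1.25, 0.93 and 2.90 above it after quantile normalisation, cyclic loess and scaling to hybridisation controls. List values relative to all probe sets, here and below, use the median of filtered probe sets, -0.20 as deposited. All genes, read like the lists from their brightest probe set, had 0.12. Against that median each list would stand lower as deposited, and it was not computed for the other scalings. For oligodendrocyte markers the same 4 values were 1.44, 0.98, 0.31 and 1.97, with 6 of 9 called higher and 0 lower after quantile normalisation, and 4 higher and 2 lower after cyclic loess. Of 5 microglia markers tested, 2 were called higher and 0 lower, and 1 and 0 after quantile normalisation or cyclic loess.

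For Padi4, 3 of 6 neutrophil markers past the filter were called lower in bound RNA than in input and 0 higher, with a median of -1.22. Over all genes 24.8% were called lower and 31.6% higher. Of the 3, Mpo, a peroxidase gene named here after its values were seen, had a bound mean under the filter and so passed it through the input array. After cyclic loess 2 were called lower and 1 higher, the higher one being S100a9 at 1.95 (adjusted p = 0.049), also named after its values were seen. Their summed signal over 8 genes was 327 and 308 on deiminated, 338 and 499 on non-deiminated and 1105 on the input array. The median over all probe sets was also highest on the input array. The list's median position was at the 54.2 and 49.2 percentile on deiminated, 50.3 and 54.0 on non-deiminated and 53.9 on the input array. Camp, a granule peptide gene, had signals of 47.7 and 68.7 on deiminated, 29.3 and 25.0 on non-deiminated and 305 on the input array. The list's median relative to all probe sets was -1.02 as deposited and -0.84, -0.71 and -0.91 under the other scalings in the order above. S100a8, a calcium-binding protein of neutrophils, had -0.49 ± 0.50 and did not pass. The red blood cell gene Hba-a1 fell by 3.38 (SE 0.68; adjusted p = 0.00159) and Slc4a1 by 2.62, while Alas2 rose by 1.78, these being the 3 of 6 red blood cell markers with a probe set of 1 symbol. The part of blood cells in the Padi4 values was not tested.

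For Padi6, the other genes of the oocyte maternal complex and zona were mostly under the filter, with 3 of 8 tested. Of these Ooep, a partner in that complex, fell by 1.90 (SE 0.70; adjusted p = 0.0343) and Zbed3 by 1.36 (SE 0.52; adjusted p = 0.039), and Khdc3 had -0.47 ± 0.76. With no filter 4 of 8 were called lower and 0 higher, with a median of -1.32 where that of all 18193 genes was -0.50, with 30.9% of them called lower and 22.3% higher. Their summed signal was 241 and 252 on deiminated, 198 and 394 on non-deiminated and 1078 on the input array. The median over all probe sets was also highest on that array. The list's median position was at the 37.1 and 24.8 percentile on deiminated, 34.4 and 32.6 on non-deiminated and 49.1 on the input array. Relative to all probe sets the median of the 3 tested was -1.15 as deposited, and -1.08, -0.65 and -0.81 under the other scalings. Ooep was no longer called after quantile normalisation (-0.58, adjusted p = 0.412) or cyclic loess (-0.91, adjusted p = 0.242), leaving 1 of 3 called lower.

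For Padi1 and Padi3, 2 of 4 keratinocyte markers past the filter were called lower and 0 higher, with a median of -0.43. Over all genes 24.8% were called lower and 31.6% higher. The basal keratin Krt5 fell by 2.46 (SE 0.65; adjusted p = 0.00734) and Lor, which encodes loricrin, by 1.26, while Krt1 had 1.40 ± 0.84 and Krt10 0.40 ± 0.45. After quantile normalisation 2 of the 4 were called lower and 2 higher, Krt1 at 2.63 (adjusted p = 0.0146) and Krt10 at 1.42 (adjusted p = 0.0148). That scaling also moved the median of all filtered probe sets from -0.20 to 0.49, and no share over all genes was taken on it. After cyclic loess 1 was called lower, Lor, and 1 higher, Krt1 at 3.14 (adjusted p = 0.00769), and Krt5 lost its call (-1.47, adjusted p = 0.0582). The list's median relative to all probe sets was -0.23 as deposited, and -0.55, -0.51 and -0.23 under the other scalings. The summed signal of 7 keratinocyte markers was 1082 and 857 on deiminated, 877 and 1255 on non-deiminated and 2169 on the input array. Most of each sum was Lor, with 689 and 522, 549 and 959, and 1582 on these arrays. The median over all probe sets was also highest on the input array. The median position of the 7 markers was at the 44.5 and 55.0 percentile on deiminated, 45.8 and 50.9 on non-deiminated and 63.7 on the input array. The part of such cells in the Padi1 and Padi3 values was not tested.

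Transcripts of proteins known as deiminase substrates did not share 1 direction. In bound RNA against input 31.6% of all genes were called higher and 24.8% lower, on the deposited scaling. The myelin and glial substrates had 2 of 4 called higher and 0 lower, and after cyclic loess 2 higher and 2 lower. Mog, a surface protein of myelin, rose by 2.66 (SE 0.44; adjusted p = 0.000393) and the filament gene Vim by 2.64 (SE 0.40; adjusted p = 0.000217), while Gfap had -0.31 ± 0.34. Quantile normalisation made Gfap a lower call at -1.45 (adjusted p = 0.00134), and with cyclic loess it was lower at -1.71 (adjusted p = 0.00193). Among 12 nuclear and RNA-binding substrates 5 were called higher and 4 lower, 1 of the 4 having passed the filter through the input array, and after cyclic loess 3 and 5. That gene was Ing4, named here after its values were seen. Rps2, a ribosomal protein, rose by 2.80 (SE 0.44; adjusted p = 0.000271), the nucleolar gene Npm1 by 2.78 and the RNA-binding gene Ewsr1 by 1.79, which was not called after cyclic loess (0.36, adjusted p = 0.377). Hnrnpa1 had 0.15 ± 0.34. Alyref, of the export adaptor family, had signals of 30.9 and 58.3 on deiminated, 27.8 and 78.7 on non-deiminated and 115 on the input array, and -1.28 ± 0.70 (adjusted p = 0.134). Of 3 skin and hair substrates 0 were called higher and 1, Lor, lower, where quantile normalisation gave 2 higher and 1 lower. In limma with no filter 1 of 6 was called higher and 2 lower, where 22.3% of all genes were called higher and 30.9% lower. The higher one was Tchh, for trichohyalin, at 2.83 (adjusted p = 0.044), named here after its values were seen. Its input signal was 1.02. The lower ones were Lor and S100a3, the latter at -3.40 (adjusted p = 0.0193). Of 3 plasma and matrix substrates Fn1, a matrix protein, rose by 1.51 and the chemokine gene Cxcl10 had -3.16 ± 0.73 (adjusted p = 0.00707 with no filter), its bound mean of 4.82 being under the filter.

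**Figure D4:**
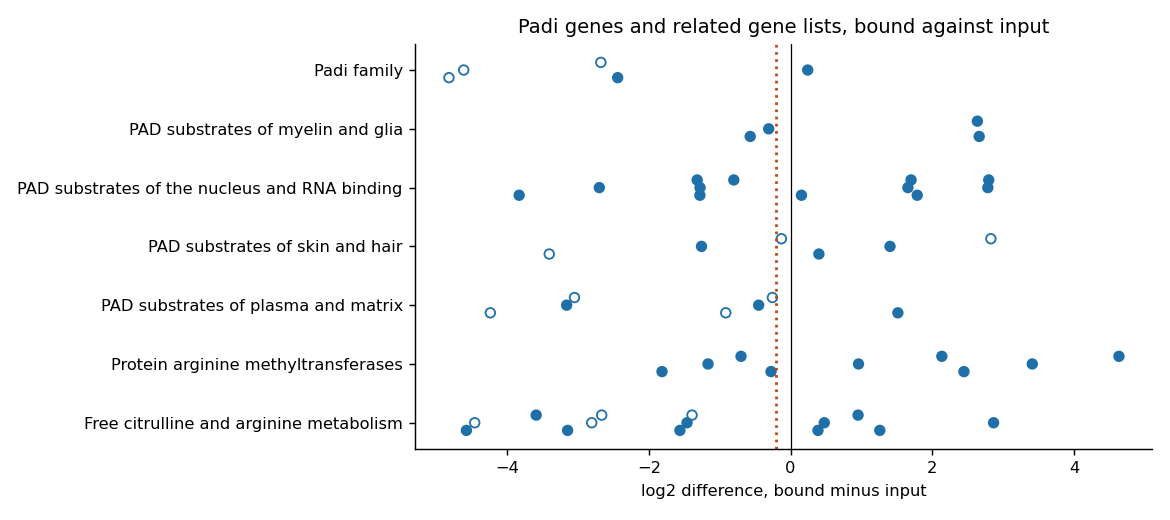
log2 difference of bound RNA from input for each Padi gene and for the genes of 6 related lists, 1 point per gene. Filled points passed the signal filter, open points did not, and the dotted line at -0.20 is the median of all filtered probe sets. Of the Padi genes only Padi2 lies above that line, and each list has members on both sides.

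Other enzymes that act on arginine likewise moved both ways. Of 9 protein arginine methyltransferases, which methylate the same side chain that deiminases convert, 5 were called higher and 1 lower in bound RNA against input, with a median of 0.96. Over all genes 31.6% were called higher and 24.8% lower on the deposited scaling, which also stands beside the metabolic genes below. After cyclic loess 4 were called higher and 3 lower. Relative to all probe sets that median was 1.16, but -0.33 after quantile normalisation, -0.13 after cyclic loess and 1.69 when scaled to hybridisation controls. Prmt2 rose by 2.45 (SE 0.38; adjusted p = 0.000259), Prmt1 by 2.13 (SE 0.40; adjusted p = 0.000988) and the brain member Prmt8 by 0.96 (SE 0.38; adjusted p = 0.0479), while Carm1 had -0.28 ± 0.35. After cyclic loess Prmt8 had -0.40 and was not called (adjusted p = 0.401). Of 10 genes of free citrulline and arginine metabolism, 2 were called higher and 5 lower. Of the 5, 3 had bound means under the filter and so passed it through the input array, namely Ass1, Arg2 and Nags, named here after their values were seen. After quantile normalisation 2 were called higher and 4 lower, and after cyclic loess 2 and 3. Oat, a mitochondrial aminotransferase, rose by 2.86 (SE 0.37; adjusted p = 6.57e-05) and Ddah1, which releases citrulline from methylated arginine, by 0.95 (SE 0.36; adjusted p = 0.0383), but after cyclic loess Ddah1 had -0.26 (adjusted p = 0.58). Nos1, the neuronal nitric oxide synthase, had 0.39 ± 0.35 and the arginine carrier Slc7a1 0.48 ± 0.34. In deiminated against non-deiminated, limma called 0 genes of these lists. The substrate lists had medians of -0.02 for myelin and glia, 0.23 for nucleus and RNA binding, -0.12 for skin and hair, and -0.20 for plasma and matrix. The methyltransferases had -0.36 with 3 of 9 positive, and the metabolic genes -0.14 with 3 of 10 positive, where the median of all genes was 0.00.

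Genes beside the Padi cluster on chromosome 4 differed among themselves in sign against input. Of the 4 nearest protein-coding genes on each side, 7 had a probe set of 1 symbol and 5 passed the filter. Sdhb, a subunit of the respiratory chain next to Padi2, had signals of 2150 and 1206 on deiminated, 2146 and 1572 on non-deiminated and 560 on the input array, and rose by 1.61 in bound RNA (adjusted p = 0.00505). Atp13a2, a lysosomal transport ATPase, had 0.05, Crocc, of the ciliary rootlet, 0.74, Igsf21 0.68 and Rcc2 -1.04, and none of these passed. Arhgef10l, tested with no filter, fell by 1.42 (adjusted p = 0.0273), and Mfap2 had 0.32.

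The probe sets most like each member were sought by Pearson's r of log2 signal over the 5 arrays, among those past the filter. These are descriptions over 5 points, 1 of which is the input array that stood apart. For Padi2 the highest were Kdm6b at 0.995, Pde1c at 0.994 and Myo16 at 0.990, and 40 of 27021 probe sets reached 0.95. For Padi4 they were Ccdc162, 2610311E24Rik and Smc4, at 0.9997 to 0.9999, and 3167 of 27022 reached 0.95, which is 11.7%. For Padi1 they were Thsd4, Me2 and Tmem198 (0.998 to 0.999), and 1307 probe sets, 4.8%, reached 0.95. For Padi3 they were Rnf217, Ccnd3 and Creb1 (0.996 to 0.999), with 308 probe sets, 1.1%, at 0.95. For Padi6 they were Ddx59, Zfp516 and Srp54b (0.998 to 0.999), with 1166 probe sets, 4.3%, at 0.95 or more. These 3 of Padi4 were highest on the input array, at 215 to 414, against 13.8 to 45.7 on the deiminated and 17.5 to 48.3 on the non-deiminated arrays.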

How the data were processed

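RNA bound to deiminated MA-Brent-1 (2 arrays), to the non-deiminated protein (2) and input RNA (1) were measured on Affymetrix arrays. The deposited values are signal intensities on a linear scale, made with MAS5 (no version stated) per the submitters' processing notes. The number of arrays limits the precision. No detection calls were used. The table has 64 control probe sets. Of the 45037 others, 34945 had 1 gene symbol, 932 several and 9160 none. The value added before log2 was 4.18, the median of all values divided by 10. limma 3.58.1 in R 4.3.3 fitted 1 mean per group, with a trend on signal, to the 27022 probe sets past the filter. The fit had 2 residual degrees of freedom, and the 1 input array took its spread from the bound groups. Reading Padi1 against input from the fit with no filter was chosen after seeing the data. A listed gene was read from its brightest probe set, by the mean over the 5 arrays. All 5 members are named. Of each list, only its 4 members with the highest mean signal were open to naming, with Alyref and Prmt1 added. The members and lists were chosen with earlier results of these data known. The fit was tested on simulated data for deiminated against non-deiminated alone. There the input array was drawn like the bound arrays, so that test says nothing about comparisons with input. Alternatives changed the added value, the filter, the scaling, a block for the protein name, and the arrays used. Replicate numbers follow sample order and pair no arrays. Protein and probe sequences were not used here.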

Additional observations from a re-analysis of the deposited data

How the results depend on the processing

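Counts called by limma depended on the scaling and the filter. Scaled to the hybridisation controls, limma called 0 in deiminated against input (7110 at an unadjusted p under 0.05), 0 in non-deiminated against input (7309) and 56 in bound against input. With no filter it called 21261 in deiminated against input and 23367 in bound against input, where more probe sets were tested. Leaving out each bound array gave 0 to 24 in deiminated against non-deiminated (24 without non-deiminated replicate 1), 9226 to 16695 in deiminated against input (9226 without deiminated replicate 1), 12512 to 15195 in non-deiminated against input and 13077 to 17365 in bound against input. An arm left with 1 array is assumed to vary like the others. Padi1 turned to 2.38, 2.10 and 2.24 against input for deiminated, non-deiminated and bound arrays when scaled to the hybridisation controls. Padi2 turned to -0.58, -0.29 and -0.43 after cyclic loess, and in deiminated against input leaving out each bound array gave -0.047 (without deiminated replicate 2) to 0.24. In deiminated against non-deiminated Padi1 had -0.42 (without deiminated replicate 2) to 1.15. The causes were not tested. Padi2 had -0.43 to -0.14 in deiminated against non-deiminated over the 12 alternatives. Its groups did not overlap, so leaving out an array or changing the added value could not turn its sign. The filter, the block and the bound arrays alone left its estimate at -0.29. The scalings could turn it, and gave -0.24 after quantile normalisation, -0.29 after cyclic loess and -0.33 scaled to the hybridisation controls. The labels give the groups no shared replicate numbers, so no pairing by number was made. A block for the protein name in the title, which pairs the bound arrays, left 0 calls in deiminated against non-deiminated.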
